A study of Mus musculus with 14 samples.

Results

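The genes described are 39 mouse liver genes of fatty acid oxidation: the nuclear receptor PPARA and its partners, the enzymes of mitochondrial and peroxisomal oxidation and ketone body metabolism, and established PPARA targets. They were taken by name from a list, with no threshold on a measured value, out of 24411 genes in the count files. Earlier results of these data were known when the list was chosen, so the shares over all genes are not a blind comparison. Of the 39 genes, 38 had enough reads to be tested among 9644 tested genes, and Fgf21 did not. The samples were livers of male littermates aged 5 to 7 months, and every mouse carried floxed alleles of Rbbp5, which encodes a core subunit of the histone H3 lysine methyltransferase complexes. WT mice were Rbbp5 flox/flox; Alb-CRE -/-, and LKO mice were Rbbp5 flox/flox; Alb-CRE +/-, so that the albumin promoter drove Cre in hepatocytes. Rbbp5 was not measured by cell type. Mice of each genotype received tunicamycin at 0.05 mg/kg or its vehicle, 500 µl of 3% DMSO in PBS, injected intraperitoneally between 9 and 10 am, with liver collected after 8 h. Tunicamycin blocks protein N-glycosylation and thereby causes stress of the endoplasmic reticulum (ER). The 14 libraries of polyadenylated RNA gave 3 samples each of WT vehicle, WT tunicamycin and LKO vehicle and 4 of LKO tunicamycin, after the LKO vehicle libraries 3 and 4, which differed by little more than sampling noise, were summed and counted as 1 sample.

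In the fasting or fat-fed liver, fatty acids are bound to coenzyme A, carried into mitochondria by the carnitine shuttle and shortened by repeated rounds of beta-oxidation, with peroxisomes taking the very long chains and the endoplasmic reticulum oxidising the omega end. The acetyl-CoA formed feeds the citric acid cycle or is turned into ketone bodies, which the liver exports. PPARA, bound to fatty acids and paired with RXR on repeated AGGTCA half-sites, is the main transcriptional activator of these genes in hepatocytes.

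Expression is given as CPM, the reads on the gene's own strand scaled to a common library size after TMM normalisation. Libraries held from 6507018 to 13519421 such reads, of which Rn45s, the 45S ribosomal RNA gene, took 72.5 to 75.5%, and the 39 genes together held 10929 to 25346 reads per library. Rbbp5 stood at 4.07 to 6.41 CPM in WT and 1.90 to 4.15 in LKO samples, and the library labelled LKO vehicle 1, at 4.15, lay within the WT vehicle range. Of the WT tunicamycin samples, number 2 had Ddit3, the ER stress factor CHOP, at 1.30 CPM, within the WT vehicle range of 0.641 to 1.89, while numbers 1 and 3 had 26.3 and 20.4. The summed CPM of 12 ER stress genes was 2258, 1036 and 2103 in WT tunicamycin 1 to 3 and 715 to 845 in WT vehicle. In number 2, Hspa5 (313 CPM, WT vehicle 197 to 253), Hsp90b1, Pdia4, Sdf2l1 and Xbp1 lay above the WT vehicle range. Herpud1 (60.6 CPM, WT vehicle 103 to 142), Dnajb9 and Atf4 lay below it. Each comparison's counts and median are also given without LKO vehicle 1 or WT tunicamycin 2, whichever it uses. Hepatocyte markers were abundant in every sample (summed CPM of 8 genes 13970 to 23961), and 5 adipocyte markers summed to at most 0.599 CPM.

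No member passed the test at an adjusted p under 0.05 in any comparison (edgeR quasi-likelihood test, Benjamini-Hochberg adjustment over all genes tested). The share of all tested genes that did was 0.363% for tunicamycin in WT mice, 0.0311% for tunicamycin in LKO mice, 0.0415% for LKO against WT under vehicle, 0.861% for LKO against WT under tunicamycin and 0% for the interaction. DESeq2 called 1 member, Etfa for tunicamycin in LKO mice, where it called 0.487% of all genes, and none in the other 4 comparisons. What the members showed was a small shift to lower values spread over most of the list. For each sample, the median over the 38 genes of the log2 CPM relative to the WT vehicle mean was 0.01, -0.0049 and -0.03 in WT vehicle 1 to 3, near 0 by construction. It was -0.27, -0.35 and -0.01 in WT tunicamycin, -0.33, -0.33 and -0.09 in LKO vehicle, and -0.69, -0.52, -0.34 and -0.37 in LKO tunicamycin. The 4 LKO tunicamycin samples lay lowest apart from WT tunicamycin 2, which was slightly lower than LKO tunicamycin 3, while WT tunicamycin 3 and LKO vehicle 3-4 lay near WT vehicle. In bulk liver, fewer cells of a type and less RNA per cell cannot be told apart.

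**Figure D1:**
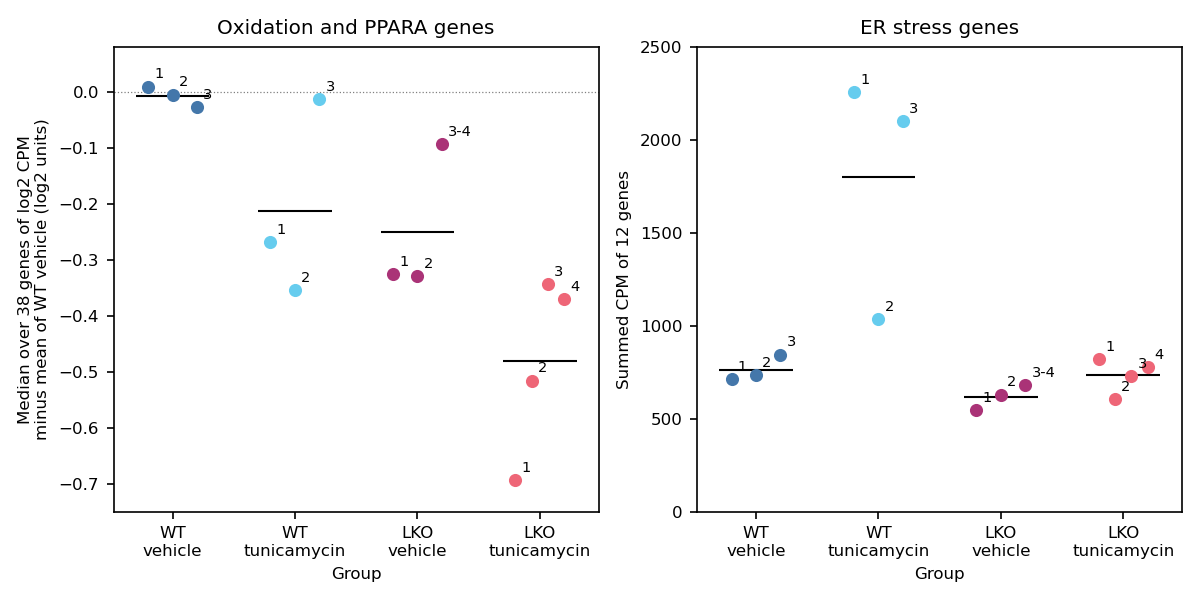
Left, the median over 38 genes of log2 CPM minus the WT vehicle mean (log2 units) for each of 13 samples by group; right, the summed CPM of 12 ER stress genes in the same samples. Points are samples with their replicate number, and lines are group means. The LKO tunicamycin samples run from -0.69 to -0.34 on the left, and WT tunicamycin 2 has the lowest ER stress sum of its group, 1036 CPM, together with the lowest left-hand value of its group, -0.35.

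In WT mice the members were on balance lower 8 h after tunicamycin, with 31 of 38 log2 fold changes below 0, against 48.3% of all genes tested, and a median of -0.20, against 0.01. An unadjusted p under 0.05 with a lower level was found for 8 members, against 6.85% of all genes: Ppara, Decr2, Etfdh, Acat1, Etfa, Eci1, Acaa1b and Acsl1. Acot2, a mitochondrial acyl-CoA thioesterase, was the only member with such a p and a higher level, against 7.93% of all genes. WT tunicamycin samples lay wholly below WT vehicle for 9 members, against 8.65% of all genes, and wholly above for 1, Crot, against 8.63%. The count of 8 was 14 without WT tunicamycin 3, against 9.71% of all genes, and the median was then -0.30. In that fit 5 members, Eci1, Decr2, Acsl1, Acat1 and Acaa1b, were called with log2 fold changes from -1.89 to -0.61, against 6.19% of all genes called. Without WT tunicamycin 2 the count was 1, against 5.12% of all genes, with 29 of 38 members below 0 and a median of -0.15. Of the 13 members that had such a p or were regulators and established targets with a log2 fold change of at least 0.4 in size, all kept their sign in that fit and 4 moved by over 1.5 times: Etfdh to -0.22, Acat1 to -0.26, Cyp4a10 to -0.16 and Vnn1 to -0.17. The count was also 1 without WT tunicamycin 1 (4.55% of all genes), 3 without WT vehicle 2 (6.20%) and 5 without WT vehicle 3 (5.84%).

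In LKO mice, a separate set of animals, the direction was the same after tunicamycin: 31 of 38 members had a log2 fold change below 0, against 49.2% of all genes, and the median was -0.24, against 0.00. An unadjusted p under 0.05 was found for 9 members, all lower, against 6.33% of all genes: Etfa, Cyp4a10, Acads, Etfdh, Ppara, Hadh, Acaa1b, Decr1 and Acaa2. The groups did not overlap for 5 members that were lower, against 6.55% of all genes, and for 1 that was higher, Crat, against 5.03%. Without LKO vehicle 3-4 the count of 9 was 2, against 4.11% of all genes, 27 of 38 members were below 0 and the median was -0.13. Without the library labelled LKO vehicle 1 it was 7, against 5.31%, with 33 below 0 and a median of -0.31. It was 3 without LKO tunicamycin 1 (4.81%) and 3 without LKO tunicamycin 2 (5.14%). The 2 tunicamycin comparisons share no sample, and 29 of 38 members were lower in both (76.3%), against 30.7% of all genes. Ppara, Etfdh, Etfa and Acaa1b had an unadjusted p under 0.05 and a lower level in both, against 2.31% of all genes. Members can move together within a sample, so these are not counts of independent genes.

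Without tunicamycin, 33 of 38 members were lower in LKO livers, against 49.1% of all genes, with a median of -0.21, against 0.00. An unadjusted p under 0.05 was found for 7 members, all lower, against 3.44% of all genes: Vnn1, Eci1, Acat1, Decr2, Acadvl, Etfdh and Hsd17b4. LKO samples lay wholly below WT samples for 13 members, against 7.58% of all genes, and wholly above for none, against 7.52%. Without the library labelled LKO vehicle 1 the count of 7 was 3, against 2.81% of all genes, with 31 of 38 below 0 and a median of -0.17. Without LKO vehicle 3-4 it was 16, against 5.41%, with 37 below 0 and a median of -0.33. It was 4 without LKO vehicle 2 (2.43%) and 4 without WT vehicle 1 (2.67%), and no member was called in these fits.

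After tunicamycin, of the 38 members 32 were lower in LKO livers, against 52% of all genes, with a median of -0.25, against -0.01. An unadjusted p under 0.05 was found for 10 members, all lower, against 8.24% of all genes: Acot2, Slc27a2, Decr1, Hsd17b4, Acaa2, Cpt2, Etfa, Hadha, Acads and Etfdh. In CPM, LKO samples lay wholly below WT samples for 8 members, against 6.58% of all genes, and above for none, against 6.34%. Without WT tunicamycin 2 the count of 10 was 11, against 9.12% of all genes, with 32 of 38 below 0 and a median of -0.31, and 1 member, Acot2, was called, against 1.84% of all genes. Without WT tunicamycin 3 it was 5, against 6.70%, with a median of -0.16. It was 6 without LKO tunicamycin 1 (7.27%), 6 without LKO tunicamycin 2 (6.81%) and 6 without WT vehicle 3 (7.16%). The count depended on the scaling: with libraries scaled to their total count the median of all genes moved to 0.14 and the members' median was -0.10. Then 1 member had such a p with a lower level, against 2.42% of all genes. Relative to the median of all genes the members lay at -0.24 under both scalings. In a limma fit of log2(FPKM + 1), where all genes lay at 0.03, the members' median was -0.06. None had such a p there, against 1.76% of all genes with such a p and a lower level. The 2 genotype comparisons share no sample, and 29 of 38 members were lower in both (76.3%), against 31.9% of all genes, with Hsd17b4 and Etfdh having an unadjusted p under 0.05 in both, against 1.05%. Here too the counts are not of independent genes.

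The interaction asks whether tunicamycin acted differently in LKO than in WT livers. No member and no gene of all those tested was called, and 1 member, Acot2, had an unadjusted p under 0.05, against 4.91% of all genes. The members' median difference was -0.03, against -0.02 over all genes, and 21 of 38 were below 0, against 53.5%. Without WT tunicamycin 2 the median was -0.06 with 24 below 0, and without the library labelled LKO vehicle 1 it was -0.05 with 21 below 0. It turned to 0.07 without WT tunicamycin 3, to 0.07 without LKO vehicle 3-4, to 0.04 without LKO tunicamycin 1 and to 0.01 without WT vehicle 3, and it lay at 0.00 without LKO tunicamycin 2. At this sample size the 95% intervals of the interaction stayed wide, from -0.34 to 0.64 for Ppara and from -0.69 to 0.24 for Cpt1a on the log2 scale, so neither an equal nor a different response was shown.

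**Figure D2:**
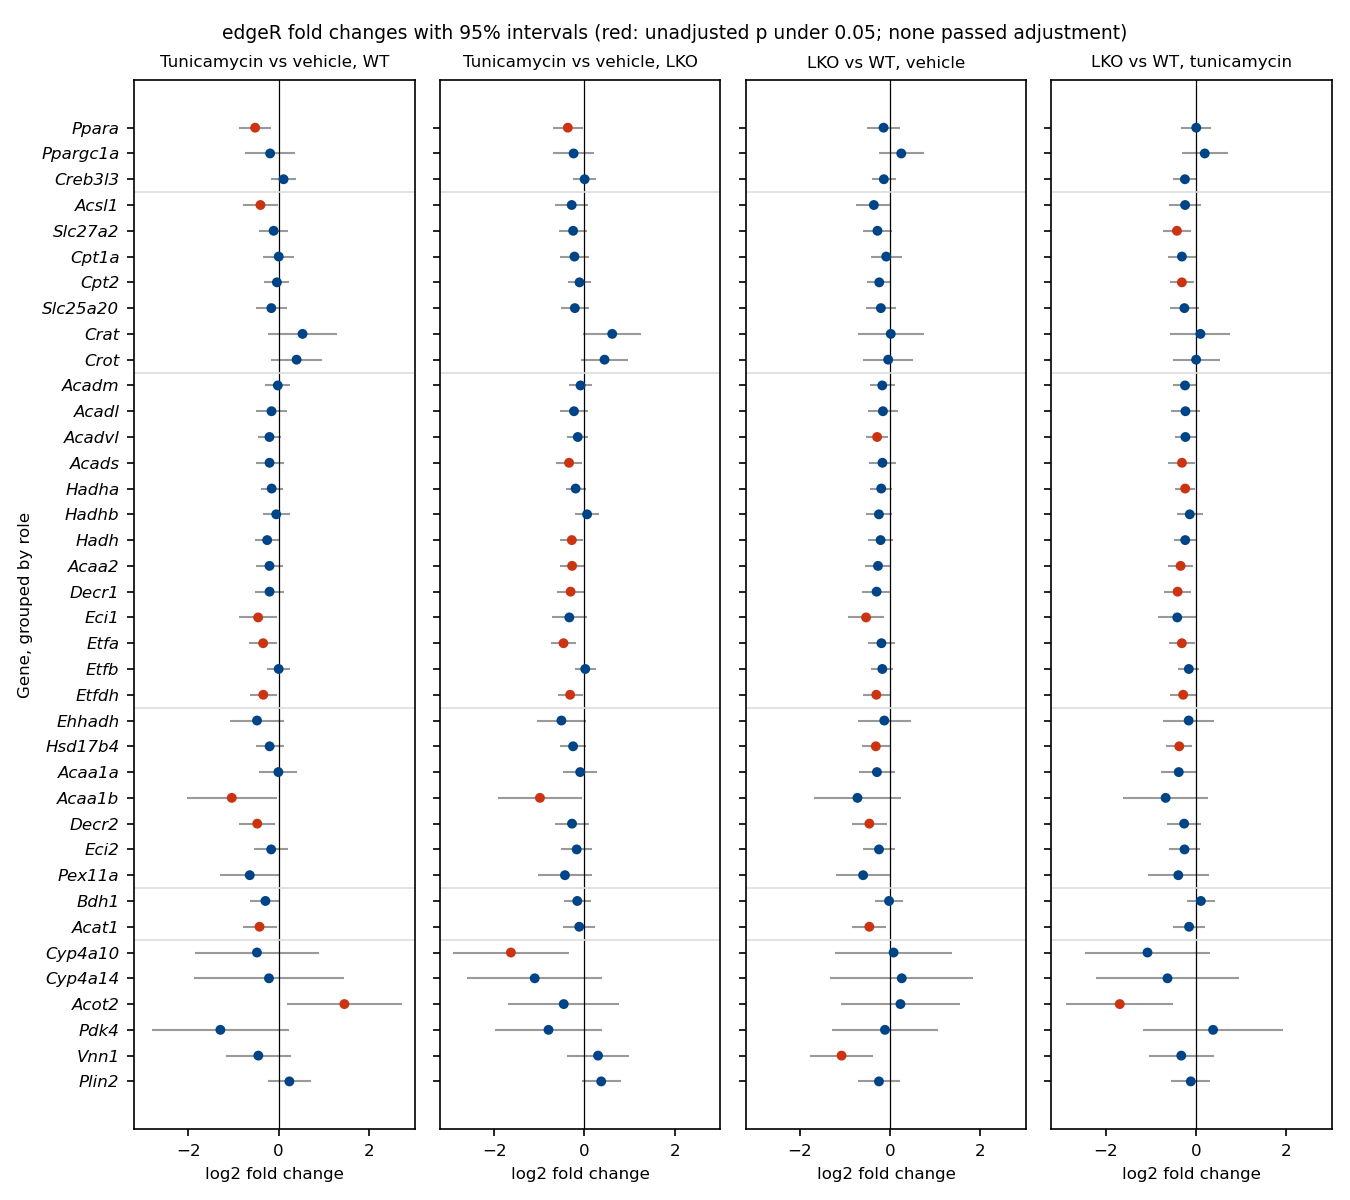
edgeR log2 fold changes (points) with 95% intervals (lines) of 38 genes, ordered by role, in 4 comparisons. Red points have an unadjusted p under 0.05, which holds for 9, 9, 7 and 10 genes from left to right, and most points in each panel lie left of 0.

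Promoters were examined because most members were lower together. RefSeq promoters (build GRCm38.p6, 250 bases before to 50 after the annotated start) matched 31 of the 39 genes, and both strands were searched. The direct repeat bound by PPARA with RXR, AGGTCANAGGTCA, occurred without mismatch in 0 of 31 members and 0.0481% of 27025 genes. With up to 2 mismatches it occurred in 4 of 31 members (12.9%), Plin2, Etfa, Slc25a20 and Creb3l3, and in 4.40% of genes. The ATF4-CHOP core TGATGNAA occurred in 1 member, Fgf21 (3.23%), and in 4.51% of genes, and the XBP1 core TGACGTGG in 1 member, Ppargc1a, and in 0.714% of genes. The ER stress elements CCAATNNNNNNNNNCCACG and ERSE-II and the cyclic AMP element TGACGTCA occurred in 0 members, and in 0.137%, 0.0444% and 2.03% of genes. A match describes letters in this window and not a bound site. The members with a match are shown 5' to 3' on the gene's strand with the match in capitals, the 250 bases before the start for Etfa, which had an unadjusted p under 0.05 in 3 comparisons, and for the hormone gene Fgf21, and a short window for the other genes. Etfa lies at chr9:55512244-55512493, Fgf21 at chr7:45615491-45615740, Plin2 at chr4:86670264-86670292, Creb3l3 at chr10:81092780-81092808 and Ppargc1a at chr5:51567762-51567785, all on the minus strand, and Slc25a20 at chr9:108662134-108662162 on the plus strand.
Etfa: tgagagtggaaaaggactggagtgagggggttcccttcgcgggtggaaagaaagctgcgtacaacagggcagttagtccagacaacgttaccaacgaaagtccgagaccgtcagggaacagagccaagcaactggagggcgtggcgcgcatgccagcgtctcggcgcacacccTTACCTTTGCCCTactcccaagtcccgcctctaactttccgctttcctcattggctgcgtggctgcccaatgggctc
Fgf21: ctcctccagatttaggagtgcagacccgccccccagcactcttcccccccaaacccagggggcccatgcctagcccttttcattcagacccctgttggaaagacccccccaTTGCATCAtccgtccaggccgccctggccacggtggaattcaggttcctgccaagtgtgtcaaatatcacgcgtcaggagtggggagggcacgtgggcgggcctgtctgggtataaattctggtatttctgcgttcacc
Plin2: agctttcaGGACCCCTGACCTaagtcaga
Slc25a20: ctgaatgtAGGTGAAAGGTCGgcggagcc
Creb3l3: ctgtaagtAGGGGAGAGGTCAcacagacc
Ppargc1a: gtgccctcCCACGTCActgagctc
The Etfa match lies 77 bases before the start with its motif on the opposite strand. The matches of Fgf21, Plin2 and Ppargc1a are on the opposite strand too, 139, 225 and 52 bases before their starts. The Creb3l3 match lies 209 bases before the start in the promoter at chr10:81092542-81092841. The other Creb3l3 promoter searched, at chr10:81098823-81099122, had no match. The Slc25a20 match begins 7 bases after its start.

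Among the regulators, Ppara (chr15:85734910-85806851, GRCm38, plus strand), the receptor gene, was measured at 123, 103 and 127 CPM in WT vehicle, 72.9, 85.9 and 87.2 in WT tunicamycin, 109, 92.1 and 118 in LKO vehicle and 67.3, 92.8, 66.9 and 102 in LKO tunicamycin. Every WT tunicamycin sample lay below every WT vehicle sample, whereas the LKO groups overlapped. The means were 118 ± 12.7 CPM (SD, n = 3) in WT vehicle and 82.0 ± 7.90 (SD, n = 3) in WT tunicamycin. Its edgeR log2 fold change with tunicamycin was -0.52 (SE 0.17, adjusted p = 0.162) in WT mice, the smallest adjusted p of the members in that comparison, and -0.37 (SE 0.16, adjusted p = 0.366) in LKO mice. Between genotypes it was -0.15 under vehicle (95% interval -0.50 to 0.21) and 0.01 under tunicamycin (-0.33 to 0.34). Ppara had lower mean levels after tunicamycin in both genotypes and did not pass adjustment in either.

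Ppargc1a, the coactivator PGC-1alpha, stood at 8.26, 7.69 and 3.94 CPM in WT vehicle, 5.23, 6.49 and 6.02 in WT tunicamycin, 9.60, 5.91 and 8.60 in LKO vehicle and 6.40, 7.29, 7.95 and 5.32 in LKO tunicamycin. Its groups overlapped in all 4 comparisons, and no log2 fold change exceeded 0.25 in size. Creb3l3 encodes CREBH, an ER-bound transcription factor of the liver that is released by cleavage and acts with PPARA on Fgf21. It stood at 47.7, 50.1 and 46.1 CPM in WT vehicle, 55.3, 52.5 and 47.4 in WT tunicamycin, 35.9, 51.5 and 42.8 in LKO vehicle and 40.1, 43.2, 46.4 and 44.9 in LKO tunicamycin. Its tunicamycin log2 fold changes were 0.11 in WT and 0.01 in LKO mice, and turned to -0.08 and -0.03 with total count scaling and, in WT mice, to -0.03 with log2(FPKM + 1). In CPM, LKO tunicamycin samples lay wholly below WT tunicamycin samples, at a log2 fold change of -0.24 (95% interval -0.50 to 0.01), which was -0.09 with total count scaling and 0.01 with log2(FPKM + 1).

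Among the genes of activation and the carnitine shuttle, Cpt1a, the outer-membrane carnitine palmitoyltransferase that sets the entry of long chains into mitochondria, was nearly level in WT livers by TMM-scaled CPM (log2 fold change -0.19 with total count scaling). It stood at 98.9, 99.2 and 103 CPM in WT vehicle, 102, 99.9 and 100.02 in WT tunicamycin, 95.9, 84.2 and 103 in LKO vehicle and 57.96, 77.3, 102 and 85.99 in LKO tunicamycin. WT samples spanned 98.9 to 103 CPM over both treatments, and the log2 fold change of tunicamycin in WT mice was 0.00 (95% interval -0.34 to 0.34). LKO tunicamycin samples were spread from 58.0 to 102 CPM, and number 3 alone reached the WT tunicamycin level, at a log2 fold change between genotypes of -0.31 (95% interval -0.63 to 0.01).

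Slc27a2, a fatty acid transporter and very long-chain acyl-CoA synthetase, had the highest FPKM of the members in WT vehicle, 66.5 ± 7.01 (SD, n = 3), where FPKM is the authors' length-scaled level. It stood at 363, 436 and 361 CPM in WT vehicle, 328, 368 and 380.02 in WT tunicamycin, 278, 309 and 368 in LKO vehicle and 243, 243, 305 and 279 in LKO tunicamycin. In CPM, all LKO tunicamycin samples lay below all WT tunicamycin samples, with an edgeR log2 fold change of -0.42 (SE 0.14, adjusted p = 0.173). In FPKM, LKO tunicamycin 3, at 56.6, lay within the WT tunicamycin range of 55.3 to 59.9. Cpt2, the inner-membrane palmitoyltransferase, stood at 25.9, 29.2 and 24.1 CPM in WT vehicle, 25.2, 26.1 and 25.9 in WT tunicamycin, 20.3, 24.9 and 21.7 in LKO vehicle and 18.1, 21.99, 18.9 and 23.9 in LKO tunicamycin. Again the genotypes did not overlap in CPM under tunicamycin, and the edgeR log2 fold change was -0.31 (SE 0.12, adjusted p = 0.229). In FPKM they did, at 4.63 to 5.35 in WT and 4.09 to 5.20 in LKO. Acsl1, the main long-chain acyl-CoA synthetase of liver, ranged from 248 to 327 CPM in WT vehicle and 161 to 266 in WT tunicamycin, with an edgeR log2 fold change of -0.40 (SE 0.18, adjusted p = 0.320) and an overlap through WT tunicamycin 3. Slc25a20, the carnitine-acylcarnitine carrier of the inner membrane, ranged from 12.7 to 22.2 CPM over all samples, and its groups overlapped or had log2 fold changes no larger than -0.26 in size.

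Crot and Crat, which transfer medium chains and acetyl groups to carnitine, had log2 fold changes above 0 after tunicamycin with each scaling that held them. Crot stood at 92.2, 86.6 and 108 CPM in WT vehicle, 132, 137 and 109 in WT tunicamycin, 71.7, 116 and 90.5 in LKO vehicle and 97.8, 80.7, 208 and 119 in LKO tunicamycin. Crat stood at 6.35, 3.46 and 4.23 CPM in WT vehicle, 8.26, 8.59 and 3.55 in WT tunicamycin, 5.45, 3.58 and 5.34 in LKO vehicle and 5.73, 5.47, 11.6 and 5.97 in LKO tunicamycin. In CPM, WT tunicamycin samples lay above WT vehicle for Crot, though by little for number 3, and LKO tunicamycin samples above LKO vehicle for Crat. In FPKM these groups overlapped for each gene. LKO tunicamycin 3 was the highest sample for both genes. The log2 fold changes with tunicamycin were 0.40 and 0.45 for Crot and 0.53 and 0.62 for Crat in WT and LKO mice, each with a 95% interval that includes 0.

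**Figure D3:**
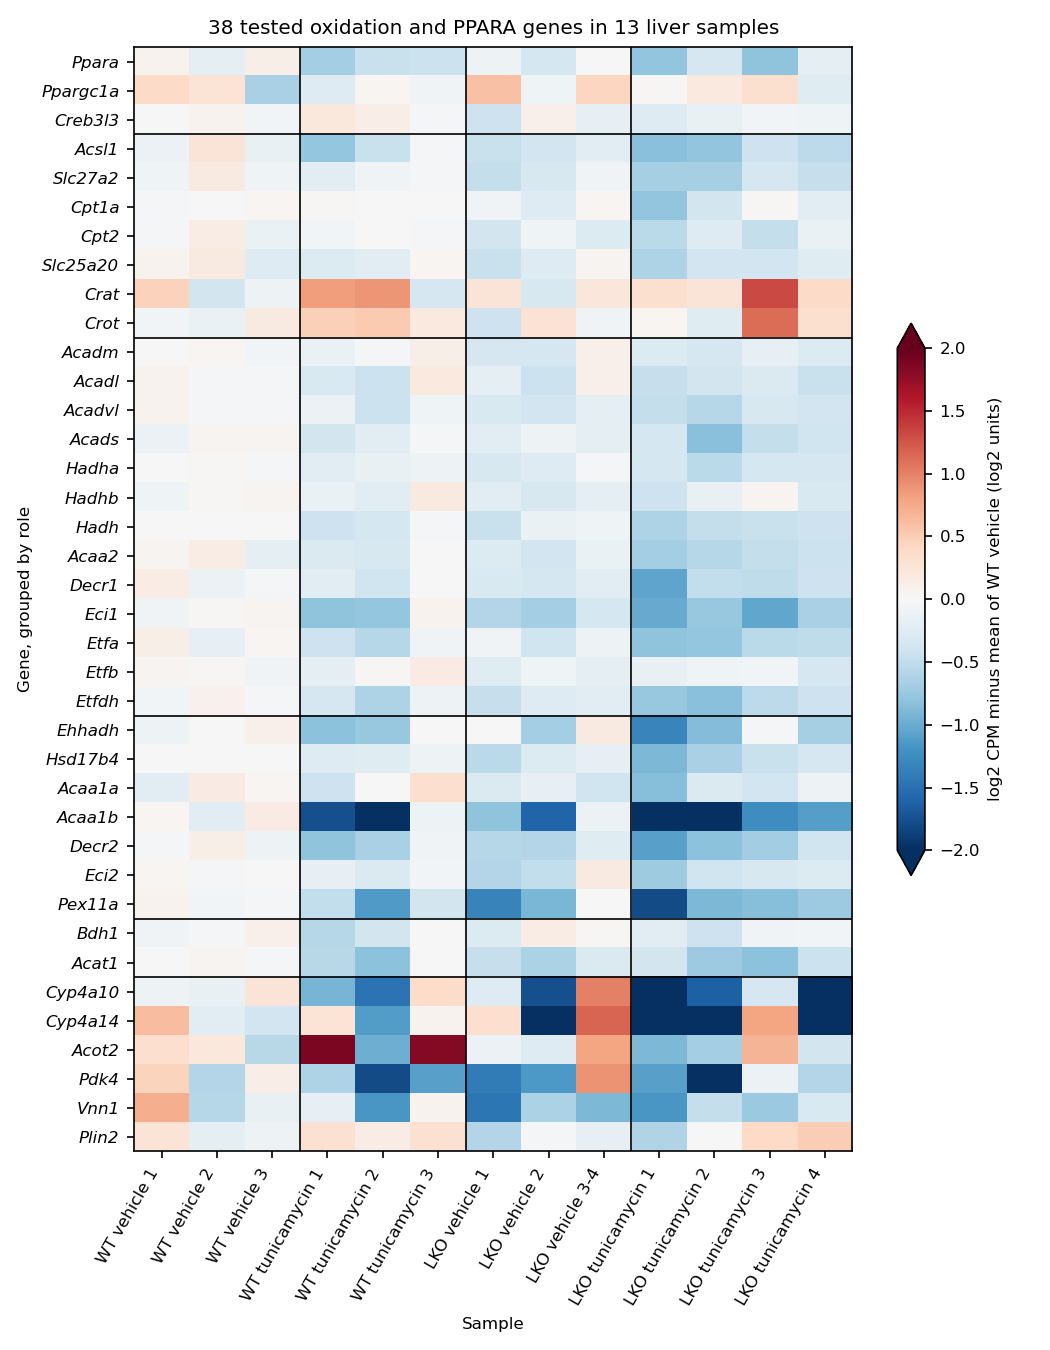
Each row is 1 of 38 genes, grouped by role, and each column 1 of 13 samples; colour is log2 CPM minus the mean of WT vehicle, with values beyond 2 in size drawn in the end colours. Blue predominates in the LKO tunicamycin columns, WT tunicamycin 3 is pale for most rows, and Crat and Crot are red in LKO tunicamycin 3.

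All 13 genes of mitochondrial beta-oxidation were lower in LKO than in WT livers under vehicle, at log2 fold changes from -0.53 to -0.16, and all 13 under tunicamycin, from -0.41 to -0.14, where total count scaling left 12 below 0 (all but Hadhb) and the fits of log2 FPKM 10 (all but Hadha, Hadhb and Etfb). With tunicamycin 12 of 13 were below 0 in WT mice (median -0.20), all but Etfb, which was below 0 too with each other scaling. In LKO mice 11 of 13 were (median -0.27), all but Hadhb and Etfb, of which Etfb was below 0 with total count scaling. Etfa, the alpha subunit of the electron transfer flavoprotein, which takes electrons from the acyl-CoA dehydrogenases, stood at 66.2, 54.2 and 62.7 CPM in WT vehicle, 45.7, 40.9 and 57.9 in WT tunicamycin, 57.7, 45.9 and 56.7 in LKO vehicle and 34.8, 35.5, 41.9 and 42.7 in LKO tunicamycin. All 4 LKO tunicamycin samples lay below all LKO vehicle samples. Its edgeR log2 fold change with tunicamycin was -0.46 (SE 0.14, adjusted p = 0.239) in LKO mice, the smallest adjusted p of the members in that comparison, and -0.34 (SE 0.15, adjusted p = 0.286) in WT mice. Between genotypes under tunicamycin it was -0.31 (SE 0.14, adjusted p = 0.285) by edgeR. Etfdh, which passes these electrons to ubiquinone, stood at 45.9, 50.6 and 47.2 CPM in WT vehicle, 37.8, 31.3 and 44.5 in WT tunicamycin, 34.8, 39.9 and 41.2 in LKO vehicle and 28.2, 26.8, 33.1 and 36.05 in LKO tunicamycin. In CPM, WT vehicle samples lay above every sample of the other groups. The unadjusted edgeR p was under 0.05 in all 4 comparisons, which reuse the same groups, and was at most 0.0497. Without WT tunicamycin 2 that p was 0.156 for tunicamycin in WT mice and 0.0112 between genotypes under tunicamycin. Without LKO vehicle 1 it was 0.133 between genotypes under vehicle and 0.0195 for tunicamycin in LKO mice. The edgeR log2 fold changes of Etfdh were -0.34 (SE 0.14, adjusted p = 0.273) and -0.32 (SE 0.13, adjusted p = 0.348) for tunicamycin in WT and LKO mice, and -0.31 (SE 0.14, adjusted p = 0.584) and -0.28 (SE 0.13, adjusted p = 0.315) for LKO against WT under vehicle and tunicamycin. With total count scaling and log2(FPKM + 1) the last of these was -0.14 and -0.11, and the first -0.52 and -0.37. Etfb, the partner subunit of Etfa, differed little, with tunicamycin log2 fold changes of 0.00 in WT and 0.02 in LKO mice and a range of 26.1 to 36.9 CPM over all samples.

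Eci1 and Decr1 encode auxiliary enzymes that prepare unsaturated chains for oxidation. Eci1 stood at 13.9, 14.9 and 15.2 CPM in WT vehicle, 8.26, 8.43 and 15.4 in WT tunicamycin, 9.72, 9.05 and 11.4 in LKO vehicle and 7.19, 8.59, 7.03 and 9.23 in LKO tunicamycin. LKO vehicle samples lay below all WT vehicle samples, and WT tunicamycin 3 stood apart from the other 2 samples of its group at the WT vehicle level. The edgeR log2 fold change of Eci1 was -0.53 (SE 0.19, adjusted p = 0.478) between genotypes under vehicle and -0.45 (SE 0.20, adjusted p = 0.303) for tunicamycin in WT mice. Decr1 stood at 38.2, 31.5 and 33.5 CPM in WT vehicle, 29.6, 25.9 and 34.4 in WT tunicamycin, 27.8, 26.8 and 29.2 in LKO vehicle and 16.4, 24.2, 24.05 and 25.6 in LKO tunicamycin. In CPM, LKO tunicamycin samples lay below every WT tunicamycin and every LKO vehicle sample. In FPKM the genotypes overlapped under tunicamycin, at 2.65 to 3.59 in WT and 1.84 to 3.22 in LKO. For Decr1 the edgeR log2 fold change was -0.41 (SE 0.14, adjusted p = 0.192) between genotypes under tunicamycin and -0.31 (SE 0.14, adjusted p = 0.400) for tunicamycin in LKO mice.

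The 4 acyl-CoA dehydrogenases, which act on successive chain lengths, differed by at most 0.34 in size on the log2 scale. Acads, for short chains, stood at 10.9, 12.3 and 12.2 CPM in WT vehicle, 9.08, 10.2 and 11.6 in WT tunicamycin, 10.2, 10.9 and 10.3 in LKO vehicle and 9.19, 6.51, 8.46 and 8.90 in LKO tunicamycin. LKO tunicamycin samples lay below all LKO vehicle samples, with an edgeR log2 fold change of -0.34 (SE 0.13, adjusted p = 0.327), and between genotypes under tunicamycin it was -0.31 (SE 0.14, adjusted p = 0.298). Acadvl, for very long chains, stood at 57.7, 53.9 and 53.6 CPM in WT vehicle, 50.8, 41.02 and 51.9 in WT tunicamycin, 44.4, 42.3 and 48.5 in LKO vehicle and 39.6, 36.8, 44.1 and 42.3 in LKO tunicamycin. LKO vehicle samples lay below all WT vehicle samples, at an edgeR log2 fold change of -0.29 (SE 0.12, adjusted p = 0.543). Acadm and Acadl, for medium and long chains, ranged from 57.0 to 78.3 and from 40.2 to 63.4 CPM over all samples and had no unadjusted p under 0.05.

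Hadha and Hadhb encode the subunits of the mitochondrial trifunctional protein and start head to head on chromosome 5 (Hadha chr5:30119423-30154980, minus strand, and Hadhb chr5:30155253-30184593, plus strand, GRCm38). Hadha stood at 83.9, 84.7 and 82.4 CPM in WT vehicle, 72.1, 75.4 and 78.3 in WT tunicamycin, 67.3, 69.6 and 81.8 in LKO vehicle and 65.8, 57.8, 65.5 and 65.9 in LKO tunicamycin. LKO tunicamycin samples lay below all WT tunicamycin samples, with an edgeR log2 fold change of -0.24 (SE 0.11, adjusted p = 0.291), a direction that turned to 0.01 in both limma fits of FPKM. Hadhb ranged from 13.5 to 20.5 CPM and had no unadjusted p under 0.05. Hadh, the medium and short-chain 3-hydroxyacyl-CoA dehydrogenase, stood at 72.4, 71.1 and 71.9 CPM in WT vehicle, 53.9, 56.4 and 70.5 in WT tunicamycin, 52.5, 65.4 and 67.7 in LKO vehicle and 46.5, 51.4, 52.5 and 53.96 in LKO tunicamycin. Acaa2, the mitochondrial thiolase, stood at 138, 149 and 117 CPM in WT vehicle, 109.5, 107 and 135 in WT tunicamycin, 111, 103 and 122 in LKO vehicle and 83.9, 90.6, 96.5 and 99.02 in LKO tunicamycin. For both genes WT tunicamycin 3 lay within or next to the WT vehicle samples, and LKO tunicamycin samples were low as a group. Their edgeR log2 fold changes with tunicamycin in LKO mice were -0.28 (SE 0.12, adjusted p = 0.366) for Hadh and -0.27 (SE 0.13, adjusted p = 0.406) for Acaa2, and that of Acaa2 between genotypes under tunicamycin was -0.34 (SE 0.13, adjusted p = 0.212).

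All 7 genes of peroxisomal oxidation had log2 fold changes below 0 in each of the 4 comparisons, with medians of -0.47 and -0.27 for tunicamycin in WT and LKO mice and -0.32 and -0.37 for LKO against WT under vehicle and tunicamycin, and with the other scalings tried (DESeq2 size factors, total counts, Rn45s left out, log2 FPKM) all 7 were below 0 as well. Acaa1b, a peroxisomal thiolase whose reads may be shared with its near-identical paralog Acaa1a, stood at 76.8, 64.5 and 83.96 CPM in WT vehicle, 22.02, 18.3 and 69.5 in WT tunicamycin, 42.8, 24.5 and 68.5 in LKO vehicle and 10.3, 14.7, 31.3 and 34.6 in LKO tunicamycin. WT tunicamycin 3 lay within the WT vehicle range, while WT tunicamycin 1 and 2 were the lowest of the 6 WT samples. The edgeR log2 fold change with tunicamycin was -1.04 (SE 0.47, adjusted p = 0.317) in WT and -0.98 (SE 0.44, adjusted p = 0.379) in LKO mice. Without WT tunicamycin 3 the WT value was -1.89, and the value between genotypes under tunicamycin turned from -0.67 to 0.18. Acaa1a ranged from 6.40 to 15.0 CPM with a log2 fold change of -0.0044 for tunicamycin in WT mice.

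Ehhadh, the bifunctional enzyme induced by PPARA, stood at 51.4, 54.97 and 59.2 CPM in WT vehicle, 31.2, 32.4 and 55.3 in WT tunicamycin, 54.5, 34.4 and 62.3 in LKO vehicle and 21.98, 30.2, 54.2 and 34.6 in LKO tunicamycin. WT tunicamycin 3 again lay within the WT vehicle range, and the edgeR log2 fold changes with tunicamycin were -0.48 (SE 0.28, adjusted p = 0.461) and -0.51 (SE 0.26, adjusted p = 0.453) in WT and LKO mice. Hsd17b4, the second multifunctional enzyme, stood at 117, 117 and 119 CPM in WT vehicle, 98.8, 99.5 and 109 in WT tunicamycin, 80.9, 96.9 and 105 in LKO vehicle and 62.9, 75.3, 86.1 and 93.05 in LKO tunicamycin. In CPM, LKO samples lay below WT samples under both treatments, with edgeR log2 fold changes of -0.32 (SE 0.14, adjusted p = 0.584) under vehicle and -0.37 (SE 0.14, adjusted p = 0.204) under tunicamycin. In FPKM the genotypes overlapped under tunicamycin, at 10.7 to 12.1 in WT and 7.02 to 11.0 in LKO. Decr2, the peroxisomal dienoyl-CoA reductase, stood at 63.7, 70.6 and 60.3 CPM in WT vehicle, 37.2, 41.3 and 61.9 in WT tunicamycin, 43.4, 43.3 and 54.6 in LKO vehicle and 30.4, 36.6, 39.9 and 48.9 in LKO tunicamycin. Only WT tunicamycin 3 overlapped the WT vehicle range in that group, and the edgeR log2 fold change was -0.47 (SE 0.19, adjusted p = 0.244) for tunicamycin in WT mice and -0.46 (SE 0.19, adjusted p = 0.530) for LKO against WT under vehicle. Eci2, an enoyl-CoA isomerase, ranged from 24.0 to 45.0 CPM, and Pex11a, a peroxisome division factor, from 2.26 to 8.86 CPM, with log2 fold changes of -0.64 for tunicamycin in WT mice and -0.60 for LKO against WT under vehicle that had an unadjusted p above 0.05.

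Of the ketone body genes, Acat1, which condenses or splits acetoacetyl-CoA, stood at 80.9, 84.6 and 80.02 CPM in WT vehicle, 55.7, 46.4 and 81.2 in WT tunicamycin, 59.2, 52.4 and 66.6 in LKO vehicle and 63.6, 49.6, 46.3 and 60.6 in LKO tunicamycin. LKO vehicle samples lay below WT vehicle, and WT tunicamycin 3 alone of its group lay within the WT vehicle range. By edgeR, its log2 fold change was -0.46 (SE 0.18, adjusted p = 0.506) between genotypes under vehicle and -0.42 (SE 0.18, adjusted p = 0.277) for tunicamycin in WT mice. Bdh1, the 3-hydroxybutyrate dehydrogenase, ranged from 21.6 to 35.5 CPM, and its largest log2 fold change in size was -0.29, for tunicamycin in WT mice.

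**Figure D4:**
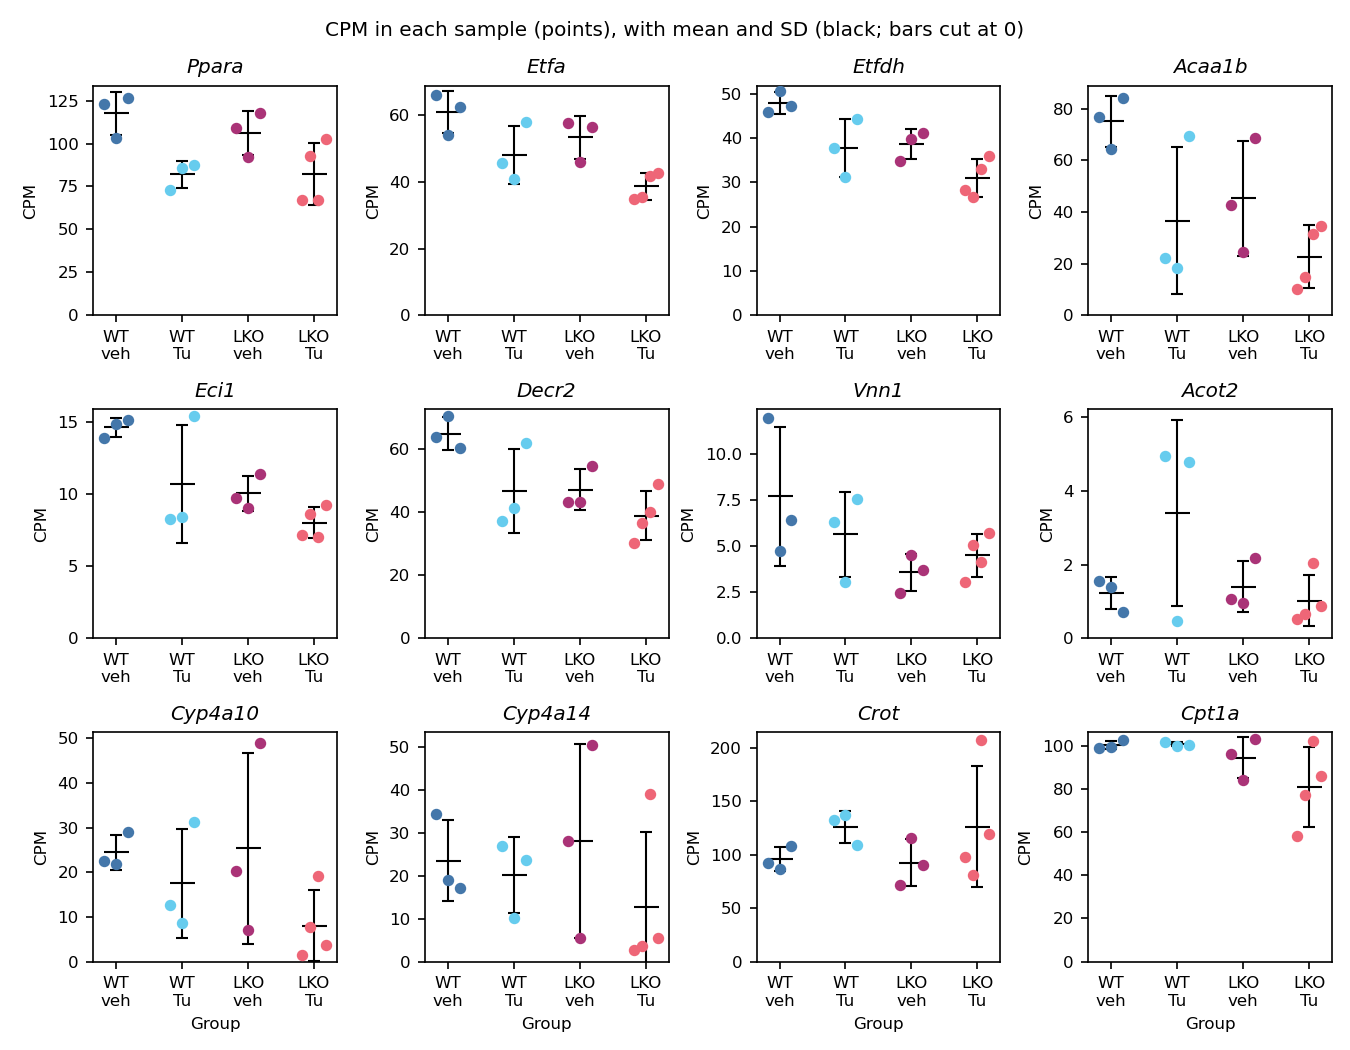
CPM of 12 genes in each of 13 samples (points) by group, with the group mean and SD in black and SD bars cut at 0; veh is vehicle and Tu is tunicamycin. Ppara and Etfdh are lower in WT tunicamycin than in WT vehicle without overlap, Acot2 has 2 high WT tunicamycin samples, Cyp4a10 and Cyp4a14 are spread most, and Cpt1a is level in WT livers on this TMM-scaled measure (-0.19 with total count scaling).

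The genes of omega-oxidation and the other PPARA targets varied most between samples of a group. Cyp4a14 and Cyp4a10, fatty acid omega-hydroxylases and classical PPARA targets that lie beside each other on chromosome 4, had biological coefficients of variation of 0.66 and 0.57, against a median of 0.15 over the 38 genes and 0.12 over all genes. Cyp4a10 stood at 22.6, 21.8 and 29.01 CPM in WT vehicle, 12.7, 8.59 and 31.3 in WT tunicamycin, 20.3, 7.01 and 48.9 in LKO vehicle and 1.60, 7.68, 19.3 and 3.80 in LKO tunicamycin. Cyp4a14 stood at 34.4, 19.1 and 17.1 CPM in WT vehicle, 26.97, 10.2 and 23.6 in WT tunicamycin, 28.2, 5.40 and 50.5 in LKO vehicle and 2.80, 3.64, 39.03 and 5.43 in LKO tunicamycin. LKO vehicle 3-4 was the highest and LKO vehicle 2 the lowest of the LKO vehicle samples for both genes, and LKO tunicamycin 3 the highest of its group. The edgeR log2 fold change with tunicamycin in LKO mice was -1.63 (SE 0.61, adjusted p = 0.310) for Cyp4a10 and -1.10 (SE 0.71, adjusted p = 0.580) for Cyp4a14, and for Cyp4a10 it was -0.48 (SE 0.65, adjusted p = 0.791) in WT mice. Reads of Cyp4a10 may be shared with its near copies Cyp4a31 and Cyp4a32.

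Acot2 was measured at low depth, from 3 to 36 reads per library. It stood at 1.56, 1.41 and 0.729 CPM in WT vehicle, 4.95, 0.486 and 4.79 in WT tunicamycin, 1.07, 0.949 and 2.20 in LKO vehicle and 0.533, 0.651, 2.04 and 0.869 in LKO tunicamycin. WT tunicamycin 1 and 3, the samples with high Ddit3, were high, and WT tunicamycin 2, with low Ddit3, was the lowest of all 13 samples. LKO vehicle 3-4 and LKO tunicamycin 3, next highest for Acot2, had Ddit3 at 0.831 and 2.04 CPM. A link between the 2 genes was not tested. By edgeR, its log2 fold change was 1.46 (SE 0.60, adjusted p = 0.263) for tunicamycin in WT mice, -1.69 (SE 0.56, adjusted p = 0.164) for LKO against WT under tunicamycin and -1.92 (SE 0.84, adjusted p = 0.948) for the interaction. Without WT tunicamycin 2 the genotype difference was -2.17 and was called (edgeR adjusted p = 0.0176), the only member called for that comparison. That fit leaves out the lowest Acot2 sample, which by itself raises the WT tunicamycin mean. Acot1, Acot3 and Acot4 are close copies of Acot2, and reads may be split among them.

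Vnn1, a pantetheinase, stood at 11.97, 4.74 and 6.41 CPM in WT vehicle, 6.33, 3.08 and 7.56 in WT tunicamycin, 2.49, 4.53 and 3.74 in LKO vehicle and 3.06, 5.08, 4.18 and 5.75 in LKO tunicamycin. In CPM, LKO vehicle samples lay below all WT vehicle samples, with an edgeR log2 fold change of -1.08 (SE 0.33, adjusted p = 0.359), the smallest adjusted p of the members in that comparison. In FPKM, LKO vehicle 2, at 0.913, lay above WT vehicle 2, at 0.889. WT vehicle 1 was the highest sample, and without it the tunicamycin log2 fold change in WT mice turned from -0.45 to 0.02. Pdk4, the kinase that turns off pyruvate dehydrogenase, had 3 to 45 reads per library and stood at 3.11, 1.41 and 2.48 CPM in WT vehicle, 1.38, 0.486 and 0.926 in WT tunicamycin, 0.711, 0.876 and 4.33 in LKO vehicle and 0.933, 0.390, 2.04 and 1.41 in LKO tunicamycin. Its edgeR log2 fold change with tunicamycin was -1.29 (SE 0.71, adjusted p = 0.422) in WT and -0.79 (SE 0.56, adjusted p = 0.621) in LKO mice, and the LKO value turned to 0.61 without LKO vehicle 3-4. Plin2, a lipid droplet coat protein, stood at 39.9, 28.96 and 30.8 CPM in WT vehicle, 40.5, 36.6 and 40.6 in WT tunicamycin, 21.8, 32.3 and 29.4 in LKO vehicle and 21.6, 33.1, 43.6 and 46.1 in LKO tunicamycin. It was higher on average after tunicamycin in both genotypes, at log2 fold changes of 0.24 and 0.37, with overlapping groups in all 4 comparisons. Fgf21, a liver hormone induced by PPARA and ATF4, had 0 to 5 reads per library, the most being 5 in LKO tunicamycin 3 and 4 in WT tunicamycin 1, and was too low to be tested.

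Other genes of the pathway, 67 by a second list of which 62 were tested, are shown for comparison. They had medians of -0.17, -0.19, -0.14 and -0.15 in the same 4 comparisons. Of the 62, 46, 44, 45 and 42 were below 0, against 48.3, 49.2, 49.1 and 52% of all genes. An unadjusted p under 0.05 with a lower level was found for 15, 14, 9 and 12 of them, against 6.85, 6.33, 3.44 and 8.24%. Such a p with a higher level was found for 3, 4, 2 and 3, against 765, 562, 454 and 728 of all 9644 genes. None was called except Ech1, a dienoyl-CoA isomerase. It was called lower in LKO than in WT livers under tunicamycin, where 0.861% of all genes were called. Ech1 stood at 26.6, 23.7 and 24.3 CPM in WT vehicle, 23.8, 23.7 and 27.5 in WT tunicamycin, 19.2, 18.5 and 21.1 in LKO vehicle and 12.1, 12.9, 18.7 and 16.9 in LKO tunicamycin. LKO tunicamycin samples lay below all WT tunicamycin samples, with an edgeR log2 fold change of -0.71 (SE 0.14, adjusted p = 0.0316). Those with the 3 smallest p-values were Slc16a1, Cyp4a12b and Sirt3 for tunicamycin in WT mice, at 0.73, -1.25 and -0.56, and Cyp4a12b, Cyp4a12a and Slc22a5 in LKO mice, at -1.33, -1.31 and -0.85. Between genotypes they were Hacl1, Slc16a1 and Sirt3 under vehicle, at -0.48, 0.52 and -0.44, and Ech1, Slc22a5 and Med1 under tunicamycin, the last 2 at -0.87 and -0.44.

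ER stress genes and cell markers are set beside these values. Of 11 tested ER stress genes, 6 were called higher with tunicamycin in WT mice (Hspa5, Hsp90b1, Pdia4, Sdf2l1, Xbp1 and Ddit3), 0 in LKO mice, where 2 had an unadjusted p under 0.05, and 6 were called lower in LKO than in WT livers under tunicamycin. The members' tunicamycin medians were -0.20 and -0.24 in those 2 genotypes. Under tunicamycin, 7 of 8 hepatocyte markers had lower levels in LKO livers (median -0.33), with Hnf4a called at an edgeR log2 fold change of -0.54 (SE 0.12, adjusted p = 0.0405), and their sums overlapped, at 14452 to 23961 CPM in WT and 13970 to 19142 in LKO. Kupffer cell and macrophage markers were higher there for 8 of 8 genes, none called, with sums of 59.3 to 74.2 and 63.0 to 126 CPM. Stellate cell and fibroblast markers were higher for 6 of 6 tested genes, none called, with sums of 93.3 to 128 and 107 to 166 CPM, and under vehicle for 5 of 6, with sums of 67.9 to 111 and 113 to 156. Bile duct cell markers, of which 2 of 5 were tested and Spp1 made up most of the sum, summed to 8.60 to 11.7 CPM in WT vehicle, 8.49 to 42.5 in WT tunicamycin, 17.4 to 55.2 in LKO vehicle and 35.8 to 111 in LKO tunicamycin. With tunicamycin, hepatocyte markers were below 0 for 5 of 8 in WT (median -0.06) and 7 of 8 in LKO mice (median -0.23). Under vehicle, 5 of 8 were lower in LKO livers (median -0.12). Medians of 5 tested periportal markers were -0.21, -0.24, -0.09 and -0.12 in the 4 comparisons, and of 5 pericentral ones -0.38, -0.38, -0.04 and -0.09. Kupffer cell and macrophage markers were higher with tunicamycin for 7 of 8 in WT and 8 of 8 in LKO mice. The part of cell composition and of the ER stress response in the members' lower values was not tested.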

How the data were processed

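RNA of mouse liver was measured in 14 libraries. Gene counts were deposited as STAR tables of whole reads, per the file headers, and the deposited FPKM table carries Cufflinks column names, per the file headers. Trimmomatic, STAR and Cufflinks and the mm10 build are named in the submitters' processing notes, and their versions are not given in the sources used here. The strand-matched count column was used, which held 99.5 to 99.6% of stranded reads. LKO vehicle libraries 3 and 4 gave a chi-square of 1.12 per degree of freedom, against 3.38 to 25.9 in 17 other replicate pairs, so their counts were summed, and 13 samples remained. The highest values, 25.9 and 25.8, were those of WT tunicamycin 3 with numbers 1 and 2, which gave 6.23 with each other. Counts were fitted in R 4.3.3 with edgeR 4.0.16 (TMM, filterByExpr, quasi-likelihood test, 1 mean per group, 9 residual degrees of freedom), with p-values adjusted over 9644 genes by Benjamini-Hochberg and a threshold of 0.05. CPM used TMM-scaled library sizes that include Rn45s, with a prior count of 2 on the log2 scale. The labels name the samples of a group only by replicate number, so p-values measure the spread between these samples. DESeq2 1.42.0 and limma 3.58.1 served for alternatives, limma on log2(FPKM + 1). The scripts were tested on simulated counts.

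All 39 members are accounted for. Values in every sample were given for 12 regulators and established targets and for up to 8 members per comparison with the smallest unadjusted p under 0.05, and the rest by range. The members and the other gene lists were chosen with earlier results of these data known. Reads are not independent molecules, since no molecular identifiers are given. Replicate numbers did not pair the samples, as same-numbered samples of different groups had deviations correlated from -0.12 to 0.14.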

Additional observations from a re-analysis of the deposited data

Results flagged for a closer look

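In 4 members, 1 LKO tunicamycin sample lay far from the other 3, with a gap above Dixon's 95% critical value. Crat was high in LKO tunicamycin 3, at 11.6 CPM, with a gap of 0.918 of the range, and Cyp4a14 was high in the same sample, at 39.03 CPM, with a gap of 0.927. Hadha was low in LKO tunicamycin 2, at 57.8 CPM (gap 0.953), and Decr1 was low in LKO tunicamycin 1, at 16.4 CPM (gap 0.83, just past the limit). In all, 39 genes were examined in this group of 4 samples, and chance flags about 1 in 20.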

How the results depend on the processing

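The members' median kept its negative sign in the 4 comparisons under every alternative run (from -0.39 to -0.15 for tunicamycin in WT, -0.31 to -0.13 in LKO, -0.33 to -0.13 for LKO against WT under vehicle and -0.31 to -0.06 under tunicamycin). The interaction median ranged from -0.08 to 0.12. Calls were absent except as follows, and their cause was not tested. Without a filter on low counts, 1 member was called for tunicamycin in LKO mice (Cyp4a10, against 0.941% of all genes), 1 for LKO against WT under vehicle (Vnn1, 0.517%) and 1 under tunicamycin (Acot2, 1.61%). DESeq2 called 1 for tunicamycin in LKO mice (Etfa, 0.487%). Leaving out 1 sample gave 0 to 5 calls for tunicamycin in WT mice, 0 to 1 for LKO against WT under tunicamycin and 0 in the other comparisons. The 5 calls came without WT tunicamycin 3, when 6.19% of all genes were called, and the 1 call without WT tunicamycin 2, when 1.84% were.

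The number of members lower at an unadjusted p under 0.05, in the order of the report 8, 9, 7, 10 and 1, was 18, 9, 4, 1 and 0 with total count scaling, where the median of all genes lay at -0.18, -0.04, 0.01, 0.14 and 0.13. Members below 0 then numbered 34, 33, 33 and 30 of 38 in the first 4 comparisons, against 70.0, 55.9, 49.0 and 31.1% of all genes. With log2(FPKM + 1) they numbered 34, 31, 35 and 27 of 39, against 54.2, 49.8, 35.6 and 29.1%. The number lower at that p was 15, 8, 3, 0 and 0 with log2(FPKM + 1), against 9.08, 4.85, 1.53, 1.76 and 1.51% of all genes. It was 15 for tunicamycin in LKO mice with 14 libraries, against 8.24%. With the replicate block no member was called (0 in each comparison). The counts lower at that p were then 12, 11, 11, 15 and 1, against 7.26, 6.44, 3.85, 7.47 and 2.60% of all genes. Same-numbered samples share only a number here.

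Without LKO vehicle 1 or WT tunicamycin 2, whichever the comparison uses, the members given singly kept their sign and moved by less than 1.5 times for tunicamycin in LKO mice (12), for LKO against WT under vehicle (8) and under tunicamycin (13). Another scaling turned the sign of Cpt1a, Etfb and Creb3l3 for tunicamycin in WT mice, of Etfb and Creb3l3 in LKO mice, of Bdh1, Cyp4a10 and Cyp4a14 for LKO against WT under vehicle, and of Creb3l3, Plin2, Hadha, Hadhb, Etfb and Acat1 under tunicamycin.

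Hadha between genotypes under tunicamycin was 0.0088 with log2(FPKM + 1), with and without the LKO vehicle 2 column, and 0.0093 with log2(FPKM + 0.1). Pdk4 in the interaction was -0.0197 without that column, an alternative chosen after seeing the data. Leaving out 1 sample gave values for Vnn1 for tunicamycin in WT mice from -0.72 to 0.018, Acaa1b between genotypes under tunicamycin from -0.99 to 0.18, and Pdk4 for tunicamycin in LKO mice from -1.19 to 0.61. The cause was not tested. Depth limits Acot2, Pdk4 and Fgf21 most, with at most 36, 45 and 5 reads in a library.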

Other observations

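Genes next to the members in sequence or role were not uniform. Acot1, a cytosolic acyl-CoA thioesterase and close copy of Acot2, stood at 5.87, 2.95 and 2.62 CPM in WT vehicle, 0.413, 0.973 and 3.24 in WT tunicamycin, 2.37, 0.584 and 7.65 in LKO vehicle and 0.666, 0.521, 1.94 and 0.651 in LKO tunicamycin. WT tunicamycin 1 held the most Acot2 and the least Acot1 of the WT samples. Cyp4a31, a near copy of Cyp4a10, stood at 0.718, 1.03 and 1.17 CPM in WT vehicle, 4.68, 3.24 and 0.463 in WT tunicamycin, 1.54, 0.876 and 2.02 in LKO vehicle and 1.20, 2.08, 8.15 and 0.977 in LKO tunicamycin, and its highest sample was LKO tunicamycin 3. Cyp4a12b, another omega-hydroxylase, stood at 22.03, 18.8 and 19.4 CPM in WT vehicle, 4.68, 4.86 and 15.9 in WT tunicamycin, 13.3, 13.1 and 24.3 in LKO vehicle and 7.33, 6.64, 5.71 and 7.60 in LKO tunicamycin, and WT tunicamycin 3 lay closer to WT vehicle than to the other 2 samples of its group.

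Slc16a1, the transporter that carries ketone bodies and lactate across the cell membrane, stood at 10.9, 11.3 and 10.6 CPM in WT vehicle, 20.2, 21.4 and 12.8 in WT tunicamycin, 12.8, 20.1 and 13.8 in LKO vehicle and 24.2, 19.1, 23.2 and 20.4 in LKO tunicamycin. WT tunicamycin samples lay above all WT vehicle samples, with an edgeR log2 fold change of 0.73 (SE 0.20, adjusted p = 0.111), and LKO vehicle samples lay above WT vehicle as well, at 0.52 (SE 0.19, adjusted p = 0.499) by edgeR.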
